A study of Sus scrofa and Rattus norvegicus with 8 samples.

Results

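The transcripts of 10 genes of lipoprotein biology were examined in pig backfat: 8 apolipoproteins or apolipoprotein-like carriers (APOE, APOD, CLU, APOM, APOA1, APOB, APOC3 and APOH) and the cholesterol efflux transporters ABCA1 and ABCG1. The members were matched by symbol. Each of the 10 symbols matched 1 Ensembl ID among the 14844 named nuclear genes of a table of 25880 gene IDs. Within them, 3 genes known to be expressed in fat (APOE, APOD and CLU) were set against 4 genes whose usual source is the liver (APOA1, APOB, APOC3 and APOH). The samples were the upper layer of backfat, a subcutaneous white fat depot, of 6 female Bama pigs aged 2 years, taken after a night without feed, with 1 RNA-seq library per pig. There was 1 group, with no treatment or genotype, so levels and ratios are described and nothing was tested between conditions. Inguinal fat of female SD rats aged 32 weeks was profiled as 2 pools in the same series and was not analysed here.

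Lipoproteins carry cholesterol and triglyceride through blood as particles wrapped in phospholipid and apolipoproteins. Particles with APOB are assembled in liver and intestine and deliver triglyceride, whereas APOA1 takes up cholesterol that cells export through ABCA1 and ABCG1, which is the first step of transport back to the liver. White fat stores a large pool of free cholesterol, exports it through these transporters, and makes some apolipoproteins of its own, while most of the others are known as products of the liver.

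Levels are TPM, an abundance corrected for transcript length and scaled to 1 total in each library, so levels of different genes can be set side by side. They keep no read numbers, so the depth of the libraries is unknown. In bulk tissue, fewer cells of a type and less RNA per cell cannot be told apart. Replicates 4 and 5 stood apart: named nuclear genes held 3.34% and 4.73% of their TPM, against 24.1% to 26.3% in the other 4 libraries. The 13 mitochondrially encoded genes held 0.209% and 0.298% of TPM there and 10.8% to 21.2% elsewhere. Each library was therefore also rescaled so that its named nuclear genes sum to 1000000, and these values are called rescaled TPM. The rescaling multiplied TPM by 3.80 to 4.15 in 4 libraries, by 29.9 in replicate 4 and by 21.1 in replicate 5. A ratio of 2 genes within a library is the same on both scales. The labelled tissue matched its markers, since all 8 adipocyte markers with an ID were over 1 TPM in every library, with ADIPOQ between 2437 and 3746 rescaled TPM. Marker sums on the rescaled scale ran from 11632 to 32429 for stroma, 647 to 1412 for endothelium, 561 to 1126 for smooth muscle, 485 to 1053 for macrophages and 110 to 303 for nerve sheath. They ran from 20.1 to 47.1 for lymphocytes, 1.89 to 15.8 for skeletal muscle and 1.48 to 5.82 for keratinocytes.

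The 10 members covered more than 3 orders of magnitude in level, from APOE at a mean of 4010.3 rescaled TPM to APOM at 1.15. At the detection threshold of over 0.1 TPM, 9 of the 10 were detected in all 6 libraries, against 67.2% of named nuclear genes, and the exception was APOM. At over 1 TPM in every library 5 of 10 remained (APOE, APOD, CLU, APOA1 and ABCA1), against 30.9%. On deposited TPM, 9 of the 10 members were lowest in replicate 4 or 5, as were 99.5% of the named nuclear genes over 0.1 TPM in every library, and the exception was APOH, which was lowest in replicate 6. After rescaling, APOD and CLU were the 2 members still lowest in replicate 4 or 5. The share of all named nuclear genes lowest there after rescaling was not counted, so this is not read as a trait of these 2.

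**Figure D1:**
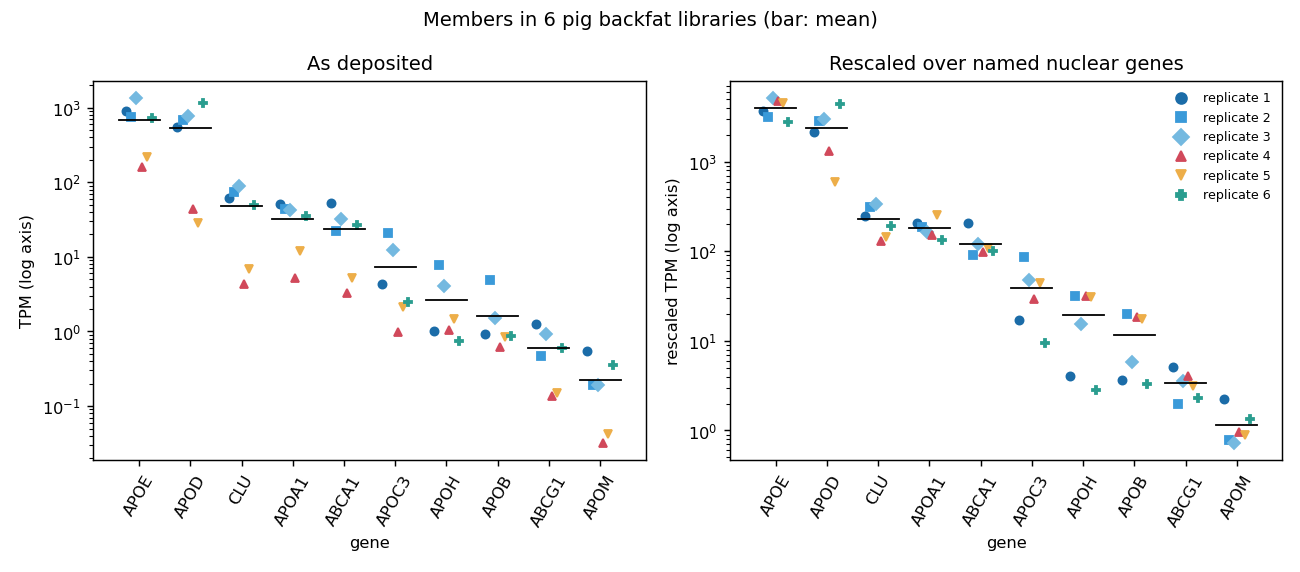
Level of each member in the 6 pig backfat libraries, as deposited TPM (left) and as TPM rescaled over named nuclear genes (right), both on log axes, with 1 symbol per library and a bar at the mean. On the left, replicates 4 and 5 lie below the other libraries for most members; on the right, APOE stays within 2750.3 to 5116 while APOC3, APOH and APOB each spread over a 6.05-fold or wider range.

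APOE, a ligand of lipoprotein receptors that is also made by fat cells and macrophages, was the most abundant member (ENSSSCG00000003088, Sscrofa11.1, chr6:51373113-51375333). Its deposited TPM were 912, 762, 1339, 160.4, 217 and 725 in replicates 1 to 6, a mean of 686 ± 443 (SD, n = 6). The rescaled values were 3651, 3163, 5116, 4804, 4578 and 2750.3, a mean of 4010.3 ± 960.1. On the deposited scale replicates 4 and 5 were the lowest, and on the rescaled scale they were among the 3 highest. The gene ranked between place 17 and place 26 among named nuclear genes in every library, and its highest rescaled value was 1.86-fold its lowest. Its level was close to that of ADIPOQ, the adipocyte hormone adiponectin, at 0.975 to 1.97 times ADIPOQ within a library. Over the 8 adipocyte markers, the highest ratio of APOE to a marker was 1.63-fold (CIDEC) to 6.83-fold (PNPLA2) its lowest, with a median of 2.39-fold. Over the 13 macrophage markers the same range ran from 2.34-fold (C1QA) to 17.8-fold (CD68), with a median of 4.46-fold, so the 2 lists overlapped. APOE was 12.4 to 47.8 times MRC1, a mannose receptor of tissue macrophages, and 39.2 to 698 times CD68, with the 2 highest CD68 ratios (550 and 698) in replicates 4 and 5.

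APOD, a lipocalin that carries small hydrophobic molecules, was the second member in level (ENSSSCG00000011831, chr13:132514546-132562594). Its rescaled TPM were 2177, 2819.7, 3001, 1317, 597 and 4359.8 in replicates 1 to 6, a mean of 2379 ± 1330.1, and the deposited TPM were 544, 679.6, 785, 44.0, 28.3 and 1149. Replicate 6 was the highest and replicate 5 the lowest on both scales, 7.30-fold apart after rescaling. Without replicates 4 and 5 the mean was 3089 ± 918 (n = 4). APOE and APOD were not in a fixed order. The ratio of APOE to APOD was 1.68, 1.12, 1.70, 3.65, 7.66 and 0.631, so APOD was the higher of the pair in replicate 6 alone. Against DCN, the stromal proteoglycan decorin, APOD stood at 0.137 to 0.526, lowest in replicate 5, which was also the lowest library of APOD itself.

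CLU encodes clusterin or apolipoprotein J, a secreted chaperone that also rides on high-density lipoprotein (ENSSSCG00000009668, chr14:11336585-11352569). Its rescaled TPM were 248, 312, 338, 131, 146 and 189.9, a mean of 227 ± 86.4, from deposited TPM of 62.1, 75.2, 88.5, 4.36, 6.90 and 50.0. Replicates 1 to 3 were higher than replicate 6, and replicates 4 and 5 were lowest. Without the latter 2 the mean was 272 ± 66.5.

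APOM, the lipocalin that carries sphingosine 1-phosphate on high-density lipoprotein, was the lowest member (ENSSSCG00000001411, chr7:23768974-23773324). Deposited TPM were 0.555, 0.190, 0.189, 0.0318, 0.0423 and 0.352, with only 4 of 6 libraries over the threshold of 0.1. The rescaled mean was 1.15 ± 0.566, and replicate 1 was highest at 2.22. The 2 lipocalin members were thus far apart, with APOD 668 to 4159 times APOM within a library. Among the 8 genes of the lipocalin family list with an ID, APOD was the highest on the mean, and SAL1, a salivary lipocalin of the pig, was next at 22.4 to 394 rescaled TPM. RBP4, the carrier of retinol, was at 59.0 ± 11.8.

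ABCA1, which loads phospholipid and cholesterol onto lipid-poor APOA1, was well expressed (ENSSSCG00000005423, chr1:246144277-246278492). Its rescaled TPM were 209, 92.1, 121, 99.1, 109.9 and 102, a mean of 122 ± 43.7, from deposited TPM of 52.2, 22.2, 31.8, 3.31, 5.20 and 26.9. After rescaling, 5 libraries lay between 92.1 and 121 and replicate 1 stood alone above them. ABCA1 was the only member with 1 library set apart by the ratio of its gap to its range after rescaling (1 of 10, against 4.83% of the named nuclear genes that averaged 1 rescaled TPM or more). ABCG1, which exports sterol to more mature high-density lipoprotein, was far lower (ENSSSCG00000027745, chr13:205561897-205628428). Its rescaled TPM were 5.09, 1.95, 3.57, 4.05, 3.15 and 2.30, a mean of 3.35 ± 1.15. Deposited TPM were 1.27, 0.470, 0.934, 0.135, 0.149 and 0.606, over 1 in replicate 1 only. ABCA1 was 24.5 to 47.2 times ABCG1, a range of 1.93-fold. The lowest ratio was in replicate 4 and the highest in replicate 2.

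The 4 liver-usual members divided into 1 abundant gene of small spread and 3 genes of lower level and wide spread. APOA1, the main protein of high-density lipoprotein, had rescaled TPM of 207, 185, 162, 154, 254 and 136, a mean of 183 ± 42.9 (ENSSSCG00000030921, chr9:44216481-44218360, minus strand). The deposited TPM were 51.8, 44.6, 42.5, 5.13, 12.04 and 35.7. The highest rescaled library, replicate 5, was 1.88-fold the lowest, replicate 6, which is close to the 1.86-fold range of APOE. APOC3, which restrains lipoprotein lipase and the clearance of remnants, lies 2942 bases from APOA1 on chromosome 9 (ENSSSCG00000015069, chr9:44211171-44213538, plus strand). Its rescaled TPM were 17.3, 87.0, 47.5, 29.1, 44.3 and 9.57, a mean of 39.1 ± 27.7, from deposited TPM of 4.33, 21.0, 12.4, 0.972, 2.10 and 2.52. The highest library was replicate 2 and the lowest replicate 6, 9.08-fold apart. APOA1 was 11.96, 2.13, 3.42, 5.28, 5.74 and 14.2 times APOC3 in replicates 1 to 6, a 6.66-fold range. Since APOC3 spanned 9.08-fold and APOA1 1.88-fold, this ratio had to range more widely than APOA1 alone.

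APOH, a plasma protein that binds anionic phospholipid, and APOB, the scaffold of very-low-density and low-density lipoprotein, were lower still. The rescaled TPM of APOH were 4.02, 32.1, 15.6, 31.5, 31.3 and 2.86, a mean of 19.6 ± 14.0 (ENSSSCG00000040910, chr12:12827195-12839172). Those of APOB were 3.70, 20.0, 5.79, 18.6, 17.8 and 3.31, a mean of 11.5 ± 8.03 (ENSSSCG00000008595, chr3:117250096-117316200). In both genes replicates 2, 4 and 5 were high and replicates 1 and 6 low, with replicate 3 between. On deposited TPM the order differed, since replicates 4 and 5 were then well below replicate 2. APOH was at 1.00, 7.73, 4.08, 1.05, 1.48 and 0.753 TPM, and APOB at 0.925, 4.83, 1.52, 0.621, 0.841 and 0.872. Without replicate 2 the deposited mean of APOB was 0.955 in place of 1.60, that of APOH 1.67 in place of 2.68, and that of APOC3 4.47 in place of 7.22.

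The 200 bases before the annotated starts of these 4 genes were read from Sscrofa11.1 with the RefSeq annotation. The aim was to set the abundant, even member beside the 3 lower, variable ones. They are written 5′ to 3′ in the sense of the gene. Capitals mark AGGTCA, the core of many nuclear receptor sites, or CCAAT, read on either strand, so that AGGTCA may appear as TGACCT and CCAAT as ATTGG. The windows are chr9:44218361-44218560 (minus strand) for APOA1, chr9:44210971-44211170 (plus) for APOC3, chr3:117249896-117250095 (plus) for APOB and chr12:12839173-12839372 (minus) for APOH.
APOA1: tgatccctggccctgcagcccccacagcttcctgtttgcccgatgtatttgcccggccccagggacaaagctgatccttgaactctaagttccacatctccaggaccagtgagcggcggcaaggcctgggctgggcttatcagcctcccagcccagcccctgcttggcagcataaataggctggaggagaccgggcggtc
APOC3: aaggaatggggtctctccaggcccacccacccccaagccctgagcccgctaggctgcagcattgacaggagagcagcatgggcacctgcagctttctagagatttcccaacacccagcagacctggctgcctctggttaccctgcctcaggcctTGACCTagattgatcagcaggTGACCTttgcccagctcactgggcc
APOB: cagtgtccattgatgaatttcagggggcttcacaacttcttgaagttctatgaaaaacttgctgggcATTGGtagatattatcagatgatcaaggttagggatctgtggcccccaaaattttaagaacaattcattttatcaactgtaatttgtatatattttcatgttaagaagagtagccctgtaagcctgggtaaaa
APOH: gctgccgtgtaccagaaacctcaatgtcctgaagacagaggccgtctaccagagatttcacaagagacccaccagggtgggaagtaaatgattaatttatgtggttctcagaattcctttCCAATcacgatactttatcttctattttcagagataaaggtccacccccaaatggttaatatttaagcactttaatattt
The windows of APOA1 and APOC3 had a GC content of 62% and 60.5%, near the median of 59% over 19569 windows of protein-coding genes. Those of APOB and APOH were poorer in GC, at 36.5% and 40%. AGGTCA was matched in 1 of the 10 members, APOC3, which held 2 matches, and in 9.97% of all windows. CCAAT was matched in 3 of the 10 members (APOB, APOH and ABCG1) and in 27.7% of all windows. TATAAA, searched on both strands too, was matched in none of the 10 members and in 7.69% of all windows. A match of letters is a description of the sequence, and the annotated start need not be the start used in fat.

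The levels of the liver-usual members were next set beside ALB, which encodes serum albumin, the most abundant of 23 liver markers with an ID. ALB was at 85.7, 794, 326, 772, 1091 and 47.6 rescaled TPM in replicates 1 to 6, a 22.9-fold range. All liver markers summed to 223, 1345, 537, 1550.1, 1728 and 140.1, with 18 of 23 over 0.1 TPM in every library. SERPINA1, which encodes alpha-1-antitrypsin and is a defining liver transcript, was listed at 0 in 5 of the 6 libraries. APOH stayed close to a fixed share of ALB, at 4.69%, 4.04%, 4.78%, 4.08%, 2.87% and 6.01%, a 2.09-fold range against 11.2-fold for APOH itself. APOB was at 1.63% to 6.96% of ALB, a 4.28-fold range against 6.05-fold, and APOC3 was at 3.77% to 20.2%, a 5.36-fold range against 9.08-fold. APOA1 was 242%, 23.3%, 49.8%, 19.9%, 23.3% and 285% of ALB, a 14.3-fold range against 1.88-fold for APOA1 itself. Since ALB spanned 22.9-fold, a gene of small range such as APOA1 had to widen as a ratio to ALB. Of the 10 members, 3 (APOH, APOB and APOC3) varied less as a ratio to ALB than alone, against 0.54% of 12035 named nuclear genes and 13 of the 21 liver markers compared. Only genes of wide range could do so, while the 0.54% was taken over genes of any range. ALB is 1 gene of the list, and with the sum of the other liver markers in its place the ranges were 2.51-fold for APOH, 1.52-fold for APOB and 6.01-fold for APOC3. The part of liver transcripts in the levels of these members was not tested.

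**Figure D2:**
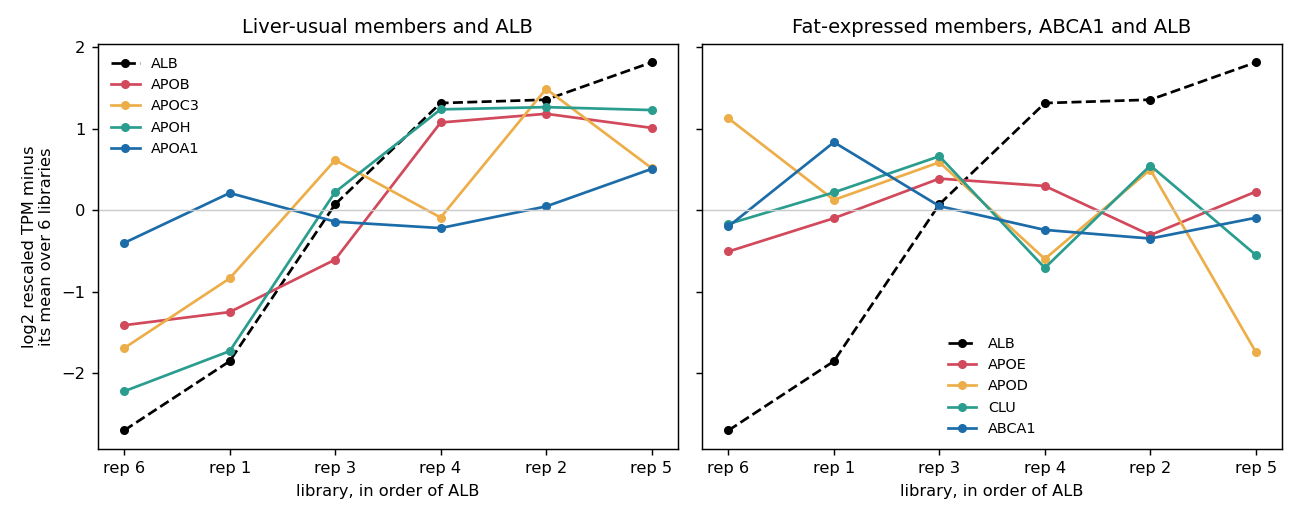
Level of the 4 liver-usual members (left) and of APOE, APOD, CLU and ABCA1 (right) beside ALB (dashed) in each library, as log2 rescaled TPM minus the gene's mean over the 6 libraries, with the libraries in order of ALB. APOH and APOB are low in replicates 6 and 1 and high in replicates 4, 2 and 5, as ALB is. APOC3 is low in replicates 6 and 1 too, but is lower in replicate 4 than in replicate 3. APOA1 and the genes on the right do not keep the order of ALB.

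Genes outside the 10 members were read in the same way. MTTP, the transfer protein that loads lipid onto APOB, was at a mean of 1.97 ± 1.93 rescaled TPM with a 32.2-fold range, which narrowed to 2.68-fold as a ratio to ALB. APOA4, which lies beside APOC3 at chr9:44201587-44204072, had a 3.79-fold range that widened to 14.3-fold as a ratio to ALB. APOF widened likewise, from 4.52-fold to 12.4-fold. Both had a small range beside the 22.9-fold range of ALB, so their ratios had to widen whatever their pattern. APOA2, a second protein of high-density lipoprotein, was listed at 0 in replicate 6 and reached 29.2 rescaled TPM in replicate 4.

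Fat-expressed members were then compared with liver-usual members within each library. The difference between the class medians of log2(TPM + 0.1) was 7.94, 5.73, 6.76, 5.31, 3.93 and 8.83 in replicates 1 to 6, a mean of 6.42 ± 1.80 (SD, n = 6) on deposited TPM. It was 6.48 ± 1.79 on rescaled TPM, and 7.31 ± 1.35 on deposited TPM without replicates 4 and 5. The difference was positive in 6 of 6 libraries and smallest in replicate 5. Ordered by this difference, the libraries ran exactly opposite to their order by summed liver markers, from replicate 6 at 8.83 with a sum of 140.1 to replicate 5 at 3.93 with a sum of 1728. The class medians contain the liver-usual members that were described above beside ALB, so the 2 orders are not independent. The order does not rest on the liver-usual members alone. APOD, the middle fat-expressed member in every library but replicate 6, was lowest in replicates 5 and 4 (597 and 1317 rescaled TPM). This also made the difference smaller there.

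Of the 12 pairs of 1 fat-expressed and 1 liver-usual member, 11 had the fat-expressed gene higher in all 6 libraries. APOE was 17.1 to 31.5 times APOA1 (median 19.1), the narrowest ratio of APOE to the 4, and 158 to 986 times APOB. APOD was 2.35 to 32.2 times APOA1 and 33.6 to 1317 times APOB. The exception was CLU against APOA1, with log2 ratios of 0.26, 0.76, 1.06, -0.24, -0.80 and 0.49. CLU was the higher gene in 4 libraries, and APOA1 in replicates 4 and 5. The 3 fat-expressed members together took 0.662% ± 0.110 of the TPM of named nuclear genes and the 4 liver-usual members 0.0253% ± 0.00716.

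**Figure D3:**
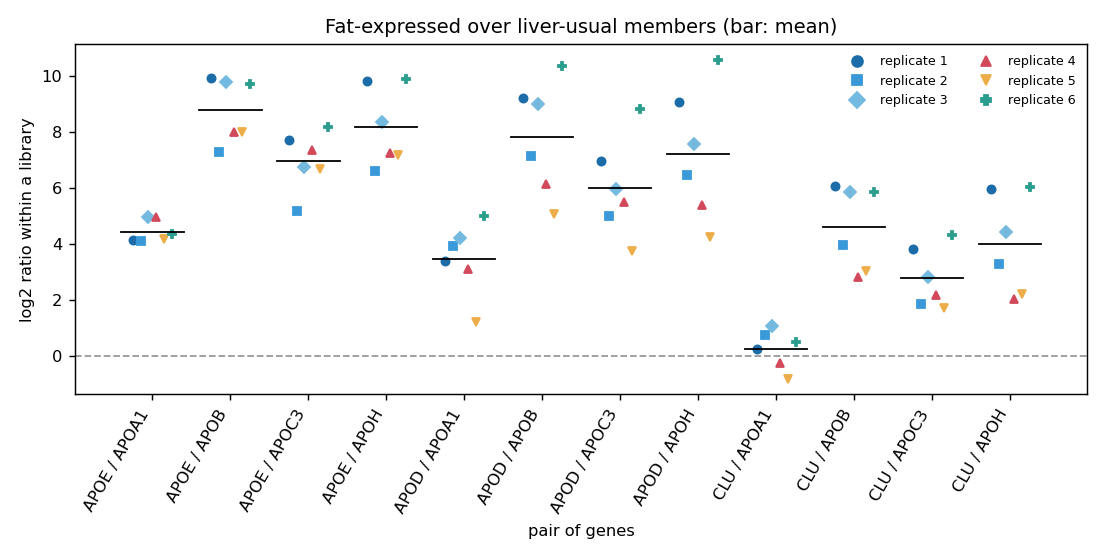
Log2 ratio of each fat-expressed member to each liver-usual member within a library, with 1 symbol per library, a bar at the mean and a dashed line at equality. All pairs lie above the line in all 6 libraries except CLU over APOA1, which ran from -0.80 in replicate 5 to 1.06 in replicate 3.

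By mean rescaled TPM the members ran APOE, APOD, CLU, APOA1, ABCA1, APOC3, APOH, APOB, ABCG1 and APOM. Neighbours were called separated when their log2 ratio had 1 sign in all libraries and a mean of at least 1 SD. This held for APOD over CLU (3.22 ± 0.79), ABCA1 over APOC3 (1.92 ± 1.35) and ABCG1 over APOM (1.58 ± 0.58). ABCA1 and APOC3 nevertheless nearly met in replicate 2, where the log2 ratio was 0.08. The other neighbours were not separated by this rule, since each pair changed order in at least 1 library. APOE was above APOD in 5 of 6 libraries (0.97 ± 1.27) and CLU above APOA1 in 4 of 6 (0.25 ± 0.68), both with a mean under 1 SD. APOA1 was above ABCA1 in 5 of 6 (0.61 ± 0.44). APOC3 over APOH, APOH over APOB and APOB over ABCG1 each held in 5 of 6.

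The spread over the 6 pigs was measured as the CV, which is the SD of rescaled TPM over its mean. The median CV of the members was 0.435, against 0.327 for the 12130 named nuclear genes that averaged 1 rescaled TPM or more. A CV over 0.5 was reached by 4 of 10 members (APOH 0.714, APOC3 0.708, APOB 0.697 and APOD 0.559), against 22.9% of those genes. APOA1 (0.235) and APOE (0.239) were the least variable members, at percentiles 30.9 and 31.9 of all CVs, and APOB, APOC3 and APOH lay between percentiles 94.2 and 94.9. The CV was lower after rescaling than as deposited in 10 of 10 members, whose median CV as deposited was 0.791. As deposited, 99.5% of named nuclear genes over 0.1 TPM in every library were lowest in replicate 4 or 5. The share of all genes with a lower CV after rescaling was not counted, so the 10 of 10 is not read as a trait of the members. The spread of the liver-usual members as a class was thus not of 1 kind, since APOA1 was the least and APOH the most variable of the 10.

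**Figure D4:**
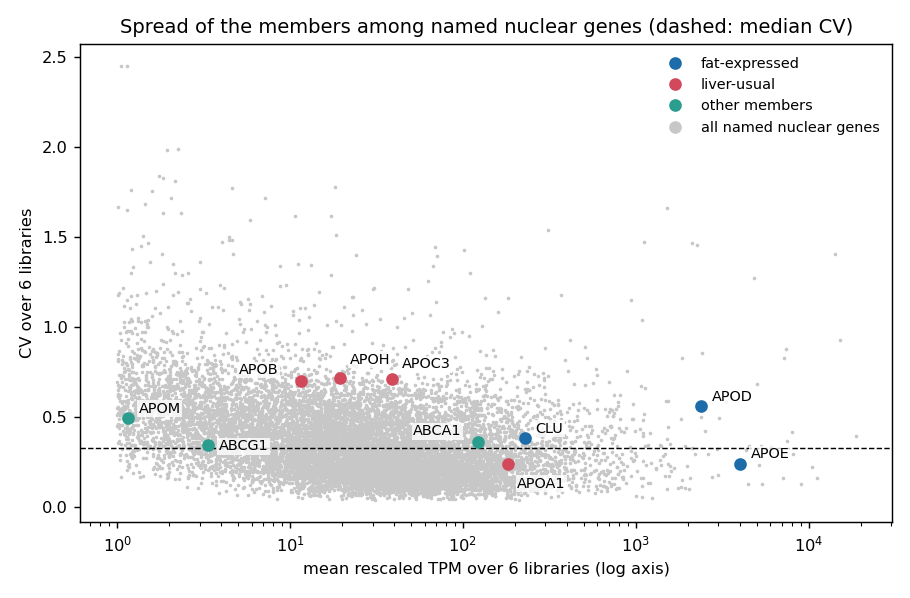
CV over the 6 libraries against mean rescaled TPM (log axis) for named nuclear genes averaging 1 or more (grey) and for the 10 members, coloured by class, with a dashed line at the median CV of 0.327. APOB, APOH and APOC3 form a group near a CV of 0.7, while APOA1 and APOE lie below the line.

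The genomic neighbours of APOE and APOA1 were read for comparison. TOMM40 (chr6:51359948-51369932), a subunit of the mitochondrial import pore, was at 32.0 ± 8.44 rescaled TPM, so that APOE was 90.3 to 203 times its neighbour. CLPTM1 (chr6:51411774-51441644) was at 133 ± 55.0, and APOE was 16.5 to 72.9 times CLPTM1. Around APOA1, PAFAH1B2 was at 73.5 ± 8.72 and SIK3 at 31.8 ± 15.6, and ZPR1 was at 1.84 ± 1.69. APOC3 was 2.08 to 16.2 times APOA4, its neighbour on the other side from APOA1. The ratio was highest in replicates 2 and 3 and lowest in replicate 6.

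Other genes of the pathway were read from lists, beside a median of 16.7 rescaled TPM over all named nuclear genes. Among other apolipoproteins, 6 of 13 listed had an ID, 5 were over 0.1 TPM in every library, and the median was 14.6. They were led by APOLD1, an endothelial protein, at 101 ± 59.9, followed by APOOL at 49.0 ± 2.22 and APOO at 18.0 ± 3.49, which are proteins of the mitochondrial inner membrane rather than of lipoproteins. Among other ABC transporters, 13 of 17 had an ID and 9 were over 0.1 TPM throughout, with a median of 12.5. ABCA9 (247 ± 71.6), ABCA6 (245 ± 80.1) and ABCA8 (121 ± 60.3), a cluster of related transporters, led that list, beside ABCA1 at 122. Among those above 0 in every library, ABCA7 and ABCG8 had the widest ranges, 6.51-fold and 6.25-fold, at means of 3.67 and 7.06. ABCG5 ran from 0 to 0.452, and ABCA12 was listed at 0 in all libraries.

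All 14 genes of sterol sensing and control had an ID, with a median of 37.9. PPARG, the regulator of fat cell identity, was at 453 ± 190.02, its partner RXRA at 216 ± 59.1, and MYLIP, a ubiquitin ligase, at 164 ± 59.6. The liver X receptors, known activators of ABCA1 and ABCG1, were at 62.3 ± 13.7 (NR1H3) and 65.1 ± 19.5 (NR1H2), and ABCA1 was 1.33 to 2.93 times NR1H3. HNF4A, a regulator of liver apolipoprotein genes, was at 1.17 ± 0.479 and over 0.1 deposited TPM in 4 of 6 libraries. Replicates 4 and 5 were under that threshold, although the rescaled values of HNF4A were highest there (1.76 and 1.72). NR1H4, the bile acid receptor, was at 1.18 ± 0.868.

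Lipoprotein receptors (15 of 18 with an ID, median 43.4) were led by LRP6 at 191 ± 78.1, the chaperone LRPAP1 at 159.5 ± 38.4 and LRP10 at 98.5 ± 41.7. SCARB1, the receptor for high-density lipoprotein, ran from 17.5 to 142, the widest range of the list after LRP2. Particle remodelling (14 of 16, median 49.2) was led by LPL, lipoprotein lipase, at 1917 ± 194 with a 1.35-fold range, then PON2 at 598 ± 198 and PON3 at 367 ± 145. PON1, the paraoxonase of high-density lipoprotein, spread 12.4-fold around a mean of 51.8.

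Particle assembly (8 of 10, median 106) combined abundant general secretion genes with a scarce lipid loader. DGAT2, which makes triglyceride, was at 743 ± 372, SAR1A at 292 ± 84.5 and P4HB, the shared subunit of the transfer complex, at 232 ± 80.4, whereas MTTP was over 0.1 TPM in only 4 of 6 libraries. Cell cholesterol handling (15 of 16, median 37.5) was led by CAV1, the coat protein of caveolae, at 1228 ± 297, TSPO at 632 ± 236 and NPC2, which moves cholesterol out of lysosomes, at 331 ± 49.3. SOAT2, the sterol esterifier of liver and intestine, was at 4.19 ± 2.48, below SOAT1 at 16.7 ± 7.42.

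**Figure D5:**
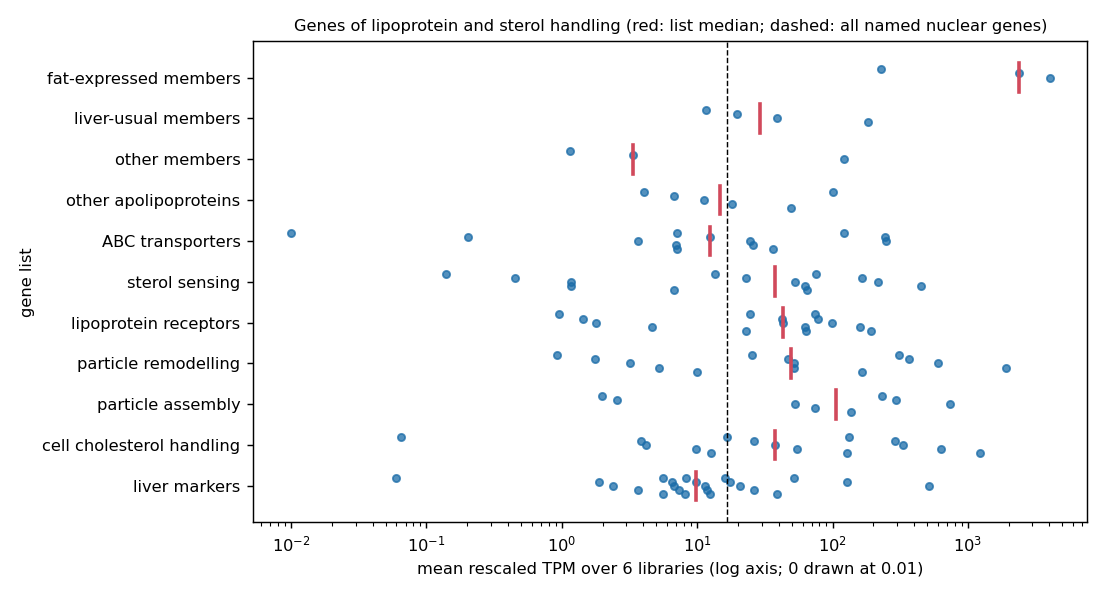
Mean rescaled TPM over the 6 libraries (log axis) of each gene with an ID in the member classes and pathway lists, with a red bar at the list median and a dashed line at 16.7, the median of all named nuclear genes. The fat-expressed members have the highest list median, with APOE and APOD furthest to the right and CLU lower at 227, and the liver markers have a median of 9.77, below the dashed line.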

How the data were processed

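RNA-seq of ribosomal RNA depleted, stranded libraries was available for 6 pigs. The authors quantified transcripts with Kallisto (version 0.43.0 in the submitters' processing notes) on pig genome Sscrofa11.1 and deposited gene-level TPM, which sum to 1000000 in each library and keep no read numbers. Replicates were not pooled. From these, TPM rescaled over 14844 named nuclear genes to a total of 1000000 were computed, with symbols matched by Ensembl ID (57.4% of IDs named). Detection was over 0.1 TPM, and the pseudocount was 0.1. The gap ratio was the gap of the highest or lowest library to the next, divided by the range, with Dixon's 95% critical value. The named genes were the 10 members, the 3 highest and at most 2 most variable of each list, chromosomal neighbours of APOE and APOA1, and genes of like pattern. Other genes named for their role, such as HNF4A, APOA4 and APOF, were chosen after their values were seen. Some listed genes are not reported here. Members and lists were chosen with earlier results of these data known. Scripts were tested on simulated data. Python 3.11.15, numpy 2.4.6, pandas 2.3.3 and matplotlib 3.10.9 were used. The rat table was not used, because its IDs are not paired with symbols. Sequence windows came from the RefSeq annotation of Sscrofa11.1. Alternatives were other scalings, thresholds, pseudocounts and class summaries, and leaving out libraries.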

Additional observations from a re-analysis of the deposited data

Results flagged for a closer look

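Sets of 6 values were examined for a library whose gap to the nearest other, divided by the range, exceeded Dixon's critical value for 6. The sets were the 10 members on both scales, every other listed gene with an ID on rescaled TPM, and the class difference on both scales. Of 216 sets, 18 exceeded it, where chance gives about 1 in 20. Among the members, APOB stood apart in replicate 2 on deposited TPM (4.83) and ABCA1 in replicate 1 on rescaled TPM (209). The others were listed genes on rescaled TPM. Replicate 2 was high for the muscle genes ACTA1 (6.36) and TNNT3 (2.79), the lymphocyte markers MS4A1 (3.34) and CD3E (4.51), the endothelial receptors TEK (108) and KDR (113), the lipocalin SAL1 (394) and the sterol hydroxylase CYP27A1 (104). Replicate 1 was high for DPP4 (32.2) and KRT1 (0.224). LEP, the fat cell hormone leptin, was high in replicate 3 (564). In replicate 4, PTGDS (11.3) and CDX2 (0.191) were high and the liver X receptor NR1H3 was low (35.3). In replicate 5, RBP4 was low (37.0) and SERPINA1 was above 0 (0.358), as in no other library. CDX2, SERPINA1 and KRT1 did not pass 0.1 TPM in any library. CDX2 and SERPINA1 were above 0 in 1 library only, and such a set exceeds the critical value by construction.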

How the results depend on the processing

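The fat-expressed against liver-usual difference kept its direction under every alternative run. It ranged from 5.31 (mean of the log2 values as class summary) to 6.48 over scalings and pseudocounts, and from 5.93 to 6.91 on leaving out each library. It was 7.31 without replicates 4 and 5 together, an alternative chosen after seeing the data. Much of this was fixed in advance. Both rescalings and median-centring multiply a library by 1 factor, so they could move the difference only through the pseudocount. The difference was positive in every library, so leaving libraries out could not reverse it. The count of members detected in every library was 9, was 5 at over 1 TPM, and was 10 at over 0.1 rescaled TPM and without replicates 4 and 5. On leaving out each library it had to stay at 9, because APOM was under 0.1 TPM in both replicates 4 and 5. The median CV of the members was 0.435 on rescaled TPM and 0.791 on deposited TPM, 0.360 to 0.457 on leaving out each library, and 0.424 without replicates 4 and 5. Mean levels moved by more than 1 SD in 10 of 10 members under both rescalings. Both multiply every value several-fold, so this move was a change of unit and was fixed in advance. On leaving out 1 library 0 of 60 moved, which was also fixed, since dropping 1 library cannot shift a mean by 1 SD. Under median-centring or quantile normalization 0 of 10 moved. Median-centring nevertheless put APOD at 303 in place of 538 and CLU at 30.2 in place of 47.8, and quantile normalization put APOB at 2.63 in place of 1.60 and APOH at 4.28 in place of 2.68. No members shared a symbol, so summing IDs was not run. No paired analysis was possible because no result comes from a test, and the replicate numbers shared by pig and rat mark different animals. Depth is unknown, so the low values of APOM, ABCG1, APOB and APOH carry a counting error that cannot be given.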

Other observations

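For 6 members, the 2 named nuclear genes with the most similar values over the 6 libraries were found among 8866 genes that averaged 10 rescaled TPM or more, by Pearson's r of log2(rescaled TPM + 1). The points share their libraries. Over 6 points, the top 2 of 8866 genes have a high r by selection alone, so r is given only as a description. The closest to APOE were PINK1 (0.962) and PPTC7 (0.961), and to APOD ZNF503 (0.997) and CDKN1B (0.997). CLU was closest to ITFG1 (0.990) and APLF (0.987), and APOM to CTU2 (0.982) and PDXK (0.972). ABCA1 was closest to TUFM (0.996) and PGLS (0.977), and ABCG1 to PPP1R36 (0.972) and CYLD (0.970). The spans differed, since APOD ranged from 597 to 4359.8 rescaled TPM and CDKN1B from 93.4 to 160.3.

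The intestine, which also makes APOA1, APOB and APOC3, was read through 7 markers with an ID, whose sum ran from 27.2 to 395 rescaled TPM. ANPEP, a peptidase that many tissues express, made up most of it, from 23.1 to 366. CDH17, an intestinal cadherin, was at 14.3 ± 8.92, SI at 3.44 ± 2.16 and FABP2 at 2.85 ± 2.07, and 2 of the 7 markers passed 0.1 TPM in every library.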
